A study of Mus musculus with 12 samples.

Results

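Cd3d, Cd3e and Cd3g encode the delta, epsilon and gamma chains of the CD3 complex, the signalling part of the T cell receptor. They are 3 of the 24421 gene symbols in each of 2 tables of mRNA counts from mouse haploid embryonic stem cells (ESCs). They were chosen by symbol, as neighbouring genes whose counts across 5 groups of libraries had already been seen. Their own levels and fold changes are therefore given as a description, with no test, and tests are kept for other genes.

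The 12 libraries came from androgenetic haploid ESCs, which hold a single, paternal set of chromosomes, on a C57BL/6 strain background. From the parental line OdG there were 2 wild-type (WT) libraries, and its 2 Etl4 knockouts (KO), called line 1 and line 2 below, had 2 libraries each. From the parental line EG1 there were 3 WT libraries and 3 of a single Etl4 KO. The labels describe neither the edit nor whether a KO line is a single clone, and they do not say whether replicates are separate cultures, so p-values cover the spread between these libraries only.

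The CD3 gamma, delta and epsilon chains are small membrane proteins. Epsilon pairs with gamma and with delta, and these pairs join the antigen-binding T cell receptor chains and the zeta chain (Cd247) before the receptor reaches the cell surface. The tails of the CD3 and zeta chains carry tyrosine motifs (ITAMs) that the kinase Lck phosphorylates and that the kinase Zap70 then binds. The genes are textbook markers of the T cell lineage, and their transcripts are not part of the pluripotency programme of ESCs.

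In mm10 (GRCm38.p6) coordinates from RefSeq, Cd3g lies on chromosome 9 from 44969572 to 44980431 on the minus strand. Cd3d lies from 44981769 to 44987052 on the plus strand, and Cd3e from 44998735 to 45009663 on the minus strand. Cd3g and Cd3d are thus transcribed away from each other, with 1337 bp between their gene bodies, while Cd3d and Cd3e are transcribed towards each other with 11682 bp between them. No other RefSeq gene overlaps the 3 gene bodies.

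Windows of 250 bases before the transcript start that the RefSeq promoter table gives for each gene were searched, and are shown because Cd3g and Cd3d varied alike across the groups and Cd3e did not. They are written 5′ to 3′ in the direction of transcription, with each E-box (CANNTG, which reads the same on both strands) in capitals. The windows are chr9:44980432-44980681 on the minus strand for Cd3g, chr9:44981536-44981785 on the plus strand for Cd3d and chr9:45009612-45009861 on the minus strand for Cd3e. For Cd3d and Cd3e that start lies inside the gene bounds given above, so the letters stop at the first annotated base of the gene and leave out the last 16 and 51 bases of the window, which are still counted in the window's values.
Cd3g: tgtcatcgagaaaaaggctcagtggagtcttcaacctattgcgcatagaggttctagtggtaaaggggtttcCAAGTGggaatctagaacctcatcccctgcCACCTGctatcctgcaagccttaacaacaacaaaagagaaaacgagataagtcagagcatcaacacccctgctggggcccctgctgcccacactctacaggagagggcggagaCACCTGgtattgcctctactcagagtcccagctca
Cd3d: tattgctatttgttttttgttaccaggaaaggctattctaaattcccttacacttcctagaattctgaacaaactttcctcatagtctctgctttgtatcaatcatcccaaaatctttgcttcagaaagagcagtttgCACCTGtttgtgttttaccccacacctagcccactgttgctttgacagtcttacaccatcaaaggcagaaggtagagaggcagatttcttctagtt
Cd3e: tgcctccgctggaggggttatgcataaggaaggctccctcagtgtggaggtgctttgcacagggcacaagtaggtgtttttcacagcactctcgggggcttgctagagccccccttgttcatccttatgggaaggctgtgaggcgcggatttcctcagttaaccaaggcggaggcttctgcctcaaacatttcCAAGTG

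The windows differed in CpG content, the dinucleotide at which mammalian DNA is methylated. The Cd3d window held 0 CpG, as did 7.9% of 32851 RefSeq promoter windows of this length, against 4 in Cd3g and 7 in Cd3e. The median window held 6. An E-box stood 3 times in the Cd3g window and 1 time in each of the others, and 66.2% of all windows held at least 1. The ETS core GGAA, searched on both strands, stood 2 times before Cd3g, 6 times before Cd3d and 5 times before Cd3e, and was in 93.4% of windows. The GATA core stood 2 times before Cd3g, 1 time before Cd3d and 0 times before Cd3e, and was in 53.6% of windows. The GC box GGGCGG stood 1 time before Cd3g and 0 times before the other genes, and was in 32.7% of windows. None of the 3 windows held TATAAA (12.4% of windows), TGTGGT, the RUNX core (14%), or the octamer ATGCAAAT (1.6%), on either strand. These letter matches are a description of the windows and show no binding.

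Library totals ran from 16110028 to 19706599 counts. The Etl4 count fell in all 3 KO lines, to a fold of 0.476 in line 1, 0.538 in line 2 and 0.502 in EG1 KO relative to the WT of the same table (adjusted p of 7.9e-13, 4.4e-12 and 7.8e-20, edgeR's quasi-likelihood test). Of the 10 ESC markers examined, including Pou5f1, Nanog and Sox2, all were detected in every group, and together they made up 5888 to 8542 CPM (counts scaled to a fixed library size, with TMM factors over all 12 libraries). Of 19 T cell markers other than the CD3 genes, 12 stayed under 10 counts in every library. Among these 12 were Cd4, Cd8a, Cd8b1, Ptprc (CD45), Rag1, Rag2, Il7r and Cd247, and Il7r was at 0 throughout. The rest of the 19 reached up to 246 (Zap70), 209 (Lck), 209 (Lat), 81 (Cd6), 57 (Cd2), 39 (Cd7) and 10 (Cd5) counts in a library. The summed level of the 19 markers was 37.7 to 38.5 CPM in OdG WT, 25.7 to 27 in line 1 and 25.5 to 26.4 in line 2. It was 28.7 to 31.4 CPM in EG1 WT and 26 to 26.9 in EG1 KO. Single markers differed: in the same order of groups Zap70 stood at 13.7, 2.48, 5.09, 11.6 and 9.06 CPM. Lck stood at 7.67, 12, 10.2, 3.25 and 4.12 CPM, so it was highest in line 1, as Cd3g and Cd3d were. In line 2, however, Lck was above its OdG WT level, while Cd3g and Cd3d were below theirs. By group mean, Zap70, Cd6, Cd2 and Cd5 were highest in OdG WT, Lat in EG1 WT and Cd7 in line 1.

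Cd3g was the CD3 gene with the most counts in all OdG libraries. The raw counts were 1027 and 1122 in OdG WT, 1810 and 1490 in line 1, 789 and 865 in line 2, 271, 272 and 346 in EG1 WT, and 531, 501 and 476 in EG1 KO. Scaled for library size, these were 59.2 and 66.2 CPM in OdG WT, 97.4 and 93.9 in line 1, 47.6 and 47.9 in line 2, 15.4, 15.4 and 17.6 in EG1 WT, and 30.5, 28.7 and 27.8 in EG1 KO. Line 1 was highest, followed by OdG WT, line 2, EG1 KO and EG1 WT. The libraries of no group overlapped those of the next in this order, and each step between means was larger than the sum of the SDs of the groups on either side of it.

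Cd3d followed nearly the same order. It stood at 37.3 and 38.4 CPM in OdG WT (646 and 651 counts), 58.5 and 56.9 in line 1 (1086 and 903), and 27.1 and 25.8 in line 2 (450 and 466). In EG1 it stood at 18, 18.9 and 16.8 CPM in WT (318, 334 and 330 counts) and at 29, 30 and 28.1 in KO (505, 524 and 481). Line 1 was again highest and EG1 WT lowest, but EG1 KO came just above line 2. Those groups did not overlap, yet only 0.963 CPM separated the lowest EG1 KO library from the highest line 2 library.

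Cd3e ran in another order and was far less abundant in OdG. It had 16 and 23 counts in OdG WT (0.923 and 1.36 CPM), 45 and 45 in line 1 (2.42 and 2.84 CPM), and 117 and 109 in line 2 (7.05 and 6.04 CPM). In EG1 it had 170, 150 and 198 counts in WT (9.64, 8.47 and 10.1 CPM) and 275, 272 and 242 in KO (15.8, 15.6 and 14.1 CPM). OdG WT, where Cd3g was second highest, was lowest for Cd3e, and EG1 KO was highest. No group overlapped the next in this order either, although OdG WT and line 1 were only 1.07 CPM apart at their nearest libraries. In bulk RNA, more cells with a transcript and more transcript per cell cannot be told apart, and this holds for every value given here.

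**Figure D1:**
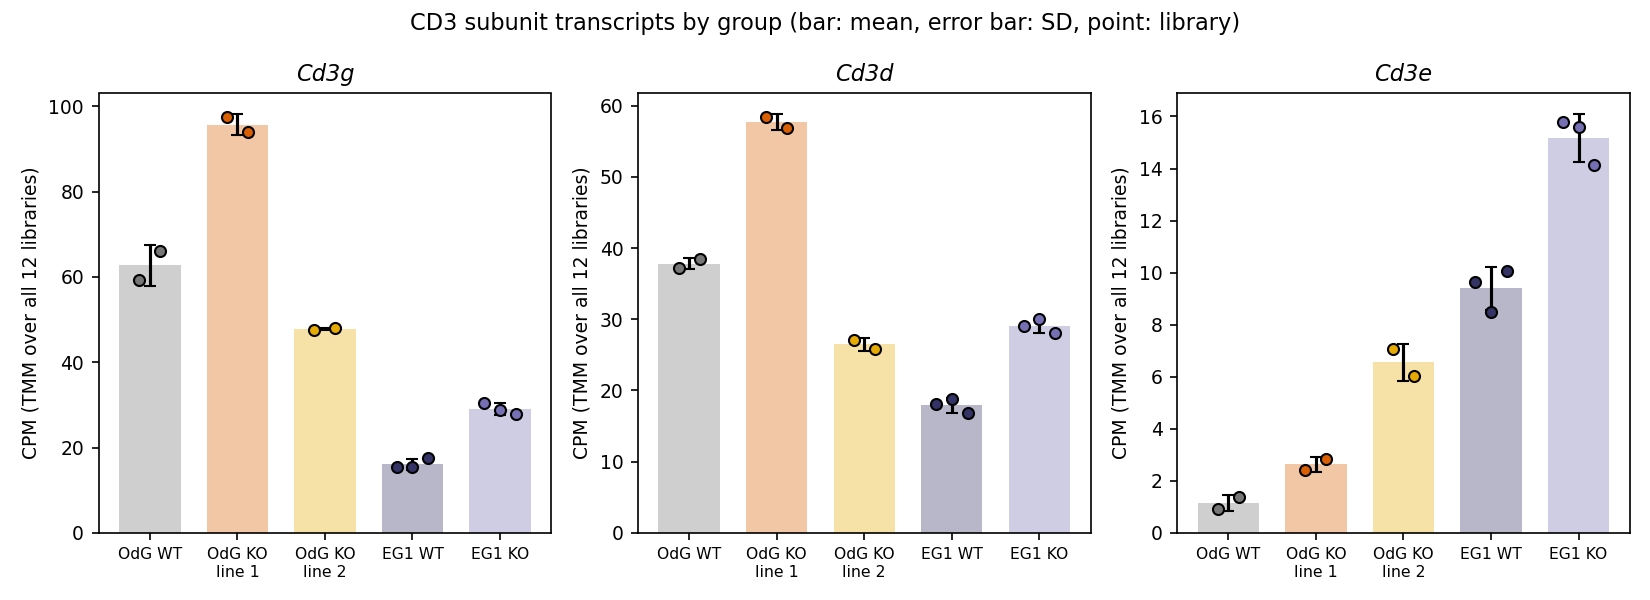
CPM (y axes, linear, differing in range, scaled over all 12 libraries) of Cd3g, Cd3d and Cd3e in the 5 groups (x axis), with bars for group means, error bars for SD and points for libraries. Cd3g and Cd3d peak in OdG KO line 1, at means of 95.7 and 57.7 CPM, while Cd3e climbs from 1.14 CPM in OdG WT to 15.2 CPM in EG1 KO.

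Levels of different genes can be compared only per length, for which the GENCODE transcript paired with each gene's RefSeq accession was used (1023 bases for Cd3g, 1617 for Cd3d, 1462 for Cd3e). On this scale OdG WT held 61.3 ± 4.81 CPM per kb of Cd3g, 23.4 ± 0.5 of Cd3d and 0.779 ± 0.21 of Cd3e (SD, n = 2). Line 1 held 93.5 ± 2.41, 35.7 ± 0.666 and 1.8 ± 0.201, and line 2 held 46.7 ± 0.266, 16.4 ± 0.567 and 4.48 ± 0.489 (SD, n = 2 each). EG1 WT held 15.8 ± 1.27, 11.1 ± 0.641 and 6.43 ± 0.569, and EG1 KO held 28.4 ± 1.34, 18 ± 0.6 and 10.4 ± 0.62 (SD, n = 3 each). The 3 levels were thus spread widest in OdG WT and line 1 and closest in EG1. The order of Cd3g above Cd3d depends on the transcript length: with the union of all annotated exons (3269 and 1815 bases) Cd3d came out level with Cd3g in line 2 and above it in the other 4 groups. Cd3e stayed below both under either length.

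Against the other genes, Cd3g was not a trace transcript. Its level per kb exceeded that of 94.5% of 14304 tested genes with a length in line 1, 91.9% in OdG WT, 88% in line 2, 79.8% in EG1 KO and 67.3% in EG1 WT. Cd3d exceeded 83.1% in line 1 and 59.2% in EG1 WT, its highest and lowest groups. Cd3e exceeded 17.8% in OdG WT and 58.1% in EG1 KO. These shares use the RefSeq-paired lengths and were not computed with exon unions. With the union length Cd3g in line 1 stood at 29.3 CPM per kb, against 93.5 with the paired length.

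The balance between Cd3d and Cd3g differed between the parental lines more than between KO and WT. Raw Cd3d counts per Cd3g count, a ratio compared only between libraries, ran from 0.58 to 0.629 in OdG WT, 0.6 to 0.606 in line 1 and 0.539 to 0.57 in line 2. In EG1 it ran from 0.954 to 1.23 in WT and from 0.951 to 1.05 in KO. Every EG1 library lay above every OdG library, and within each parent the groups overlapped or lay next to each other. EG1 and OdG libraries are in separate count tables, so parental line and table cannot be told apart.

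Cd3e moved apart from its neighbours. Raw Cd3e counts per Cd3g count ran from 0.0156 to 0.0205 in OdG WT, 0.0249 to 0.0302 in line 1, 0.126 to 0.148 in line 2, 0.551 to 0.627 in EG1 WT and 0.508 to 0.543 in EG1 KO. Line 2 lay between the other OdG groups and EG1, and did not overlap either. In EG1, where Cd3e and Cd3g were both higher in KO, the WT and KO ranges of this ratio lay side by side.

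**Figure D2:**
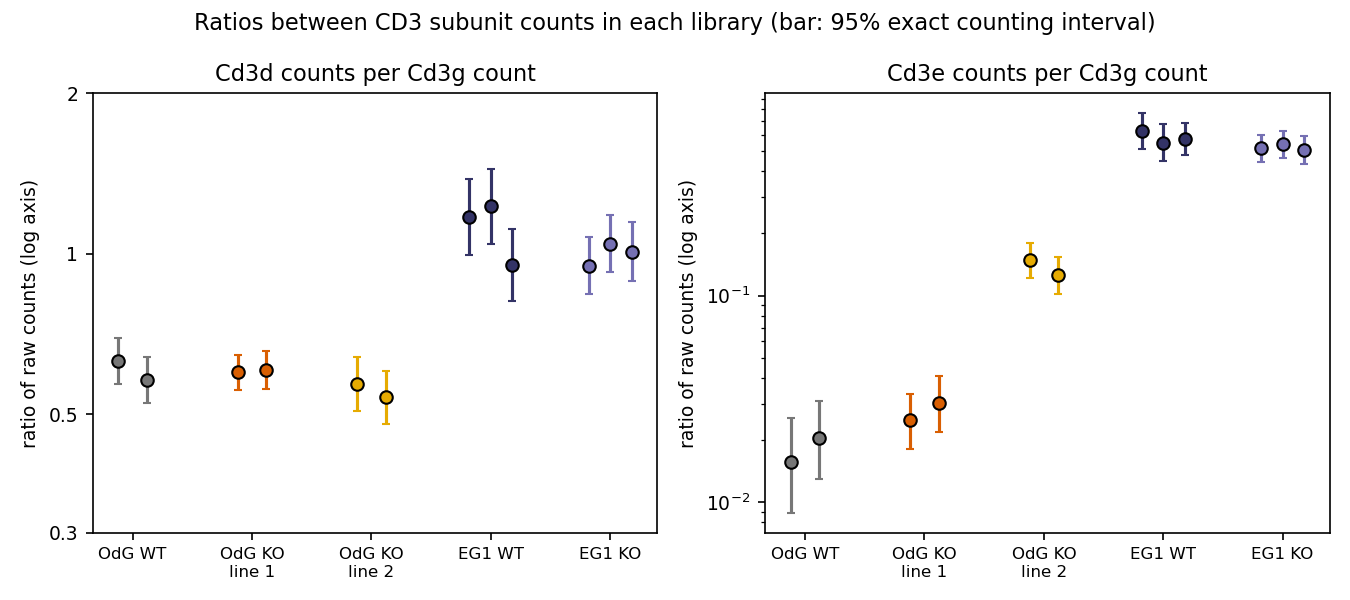
Ratio of raw counts in each library (y axes, log scale) for Cd3d per Cd3g on the left and Cd3e per Cd3g on the right, by group (x axis). Points are libraries and bars are exact 95% intervals for counting error. The left ratio is near 0.6 in all OdG groups and near 1 in EG1, while the right ratio spans 0.0156 to 0.627.

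All 3 genes had higher counts in OdG KO line 1 than in OdG WT, in both libraries against both. The fitted log2 fold change was 0.62 ± 0.054 (SE) for Cd3g, 0.61 ± 0.063 for Cd3d and 1.20 ± 0.27 for Cd3e, which are folds of 1.53, 1.53 and 2.3. In this comparison 52.8% of the 14413 genes tested passed an adjusted p of 0.05 (26.8% higher, 26.1% lower), and 7.54% also had a log2 change of at least 1, so a difference from WT was common. Called rises larger than that of Cd3g numbered 538, and those larger than that of Cd3e numbered 126.

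In line 2, set against the same 2 WT libraries, Cd3g and Cd3d were lower in both libraries and Cd3e was higher. The log2 fold changes were -0.38 ± 0.059 for Cd3g, -0.51 ± 0.07 for Cd3d and 2.52 ± 0.23 for Cd3e, or folds of 0.767, 0.704 and 5.75. In line 2, 59.9% of genes passed the threshold (30% higher, 29.8% lower), and 12.3% also had a log2 change of at least 1. Called rises larger than that of Cd3e numbered 129, while 2940 called falls were larger than that of Cd3g. Compared directly, line 2 held less Cd3g (log2 -0.998 ± 0.056) and Cd3d (log2 -1.12 ± 0.066) than line 1 and more Cd3e (log2 1.32 ± 0.19). Between the lines 37.8% of genes passed (18.6% higher in line 2, 19.2% lower), 6.76% with a log2 change of at least 1.

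In EG1 KO all 3 genes were higher than in EG1 WT in every library. The log2 fold changes were 0.84 ± 0.076 for Cd3g, 0.70 ± 0.072 for Cd3d and 0.69 ± 0.098 for Cd3e, or folds of 1.79, 1.62 and 1.61. The 3 folds were close to one another, unlike in line 2. In EG1, 7.66% of 14016 genes passed the threshold (3.6% higher, 4.06% lower), 0.392% with a log2 change of at least 1, and 18 called rises were larger than that of Cd3g. This count of 1074 genes was 638, 672 and 658 without EG1 WT replicate 1, 2 or 3.

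Between the WT lines, EG1 held less Cd3g (log2 -1.96 ± 0.07) and Cd3d (log2 -1.08 ± 0.07) than OdG and more Cd3e (log2 3.04 ± 0.19, a fold of 8.23). In this comparison, 70.3% of 14977 genes passed (35% higher in EG1, 35.4% lower), 20.8% with a log2 change of at least 1. These differences between parents were larger than any of the KO changes of the same genes, and the line and the table cannot be told apart in them.

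The zeta chain and the surrogate alpha chain were near 0. Cd247, which encodes the zeta chain, had at most 5 counts in a library, with 7 in OdG WT, 1 in line 1, 4 in line 2, 7 in EG1 WT and 1 in EG1 KO over all libraries of the group (2 in OdG, 3 in EG1). Ptcra, the surrogate alpha chain of immature T cells, had at most 4 counts in a library. The constant segments of the antigen-binding chains (Trac, Trbc1, Trbc2, Trdc, Trgc1, Trgc2) had no matched row, so their levels cannot be given. Of the other ITAM adaptor genes, Fcer1g and Tyrobp had at most 7 and 4 counts in a library. Cd79b, a chain of the B cell receptor, stood at 4.49 ± 0.176 CPM in OdG WT and 1.25 ± 0.396 in EG1 WT. Its partner chain Cd79a went the other way, at 0.291 ± 0.0778 CPM in OdG WT and 0.783 ± 0.0573 in EG1 WT (log2 1.40 ± 0.51, adjusted p = 0.017).

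**Figure D3:**
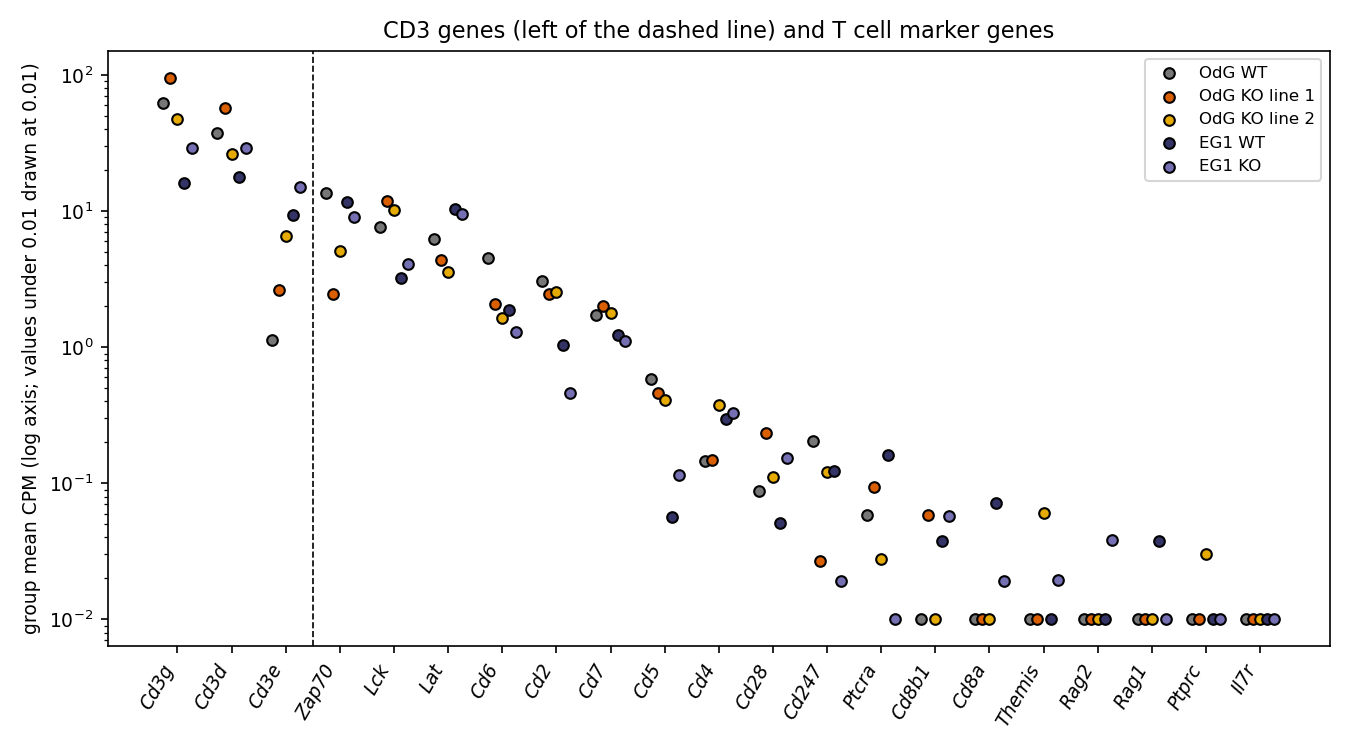
Group mean CPM (y axis, log scale, values under 0.01 drawn at 0.01) of the CD3 genes, left of the dashed line, and of T cell marker genes (x axis), coloured by group. Cd3g and Cd3d stand above all the markers in every group, and Cd5 and the genes to its right lie below 1 CPM.

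Lck, the kinase that phosphorylates ITAMs, was detected at moderate counts. It had 137 and 126 counts in OdG WT, 209 and 202 in line 1, 169 and 183 in line 2, 52, 63 and 64 in EG1 WT, and 73, 70 and 71 in EG1 KO. Lck rose in line 1 (log2 0.64 ± 0.12, adjusted p = 0.00026) and line 2 (log2 0.42 ± 0.13, adjusted p = 0.0084), and its EG1 KO value was log2 0.34 ± 0.17 (adjusted p = 0.24). EG1 WT held less Lck than OdG WT (log2 -1.23 ± 0.14, adjusted p = 6.1e-09).

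Zap70, the kinase that binds phosphorylated ITAMs, was lower in each KO than in its WT. It had 229 and 241 counts in OdG WT, 44 and 41 in line 1, and 86 and 90 in line 2. In EG1 it had 197, 199 and 246 counts in WT and 169, 153 and 149 in KO. Zap70 fell in line 1 (log2 -2.46 ± 0.15, adjusted p = 4.5e-10), in line 2 (log2 -1.42 ± 0.13, adjusted p = 5.1e-08) and, by less, in EG1 KO (log2 -0.37 ± 0.1, adjusted p = 0.025). The EG1 call was lost without EG1 WT replicate 3, EG1 KO replicate 2 or EG1 KO replicate 3. Both OdG lines were set against the same WT libraries.

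Of 43 matched genes for T cell receptor partners and proximal signalling, 15 stayed under 10 counts in every library, among them the adaptors Lcp2 and Grap2. In the OdG fit 26 were tested. In line 1, 5 rose and 10 fell (median log2 -0.13, against -0.01 over all genes), a called share to be read beside the 52.8% of all genes. Those named for a log2 change of at least 1 were Zap70, the Tec kinase (log2 -1.46, adjusted p = 0.00036), the regulator Ubash3b (log2 -1.47, adjusted p = 0.0022), Vav1 and the phosphatase Ptpn22 (log2 1.05, adjusted p = 0.026). Vav1, an exchange factor, had 3 counts in line 1 against 30 in WT, a ratio of 0.0996 (95% counting interval 0.0194 to 0.32).

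In line 2, 9 of the 26 rose and 7 fell (median log2 0.05), beside 59.9% called over all genes (30% higher, 29.8% lower). Besides Zap70, Ubash3a, a relative of Ubash3b, was higher. It had 33 counts in line 2 against 1 in WT, a ratio of 32.7 (5.47 to 1330). Between the lines 12 of the 26 passed, each of them higher in line 2, beside 37.8% of all genes (18.6% higher, 19.2% lower), but 5 passed without line 1 replicate 1 and 7 by DESeq2. They included Zap70 (log2 1.04, adjusted p = 0.00018), Ubash3b (log2 1.45, adjusted p = 0.004) and Ubash3a (a ratio of 6.56, 2.55 to 21.5).

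In EG1 KO, 2 of 25 tested genes of this list passed (median log2 -0.03), beside 7.66% of all genes. They were Zap70 and the ubiquitin ligase gene Cbl (log2 -0.15 ± 0.04, adjusted p = 0.018), both lower, and neither passed when any of the 3 libraries named for Zap70 was left out. Between the WT lines 11 were higher and 10 lower in EG1, of 26, beside 70.3% of all genes called (35% higher, 35.4% lower). Lck, the membrane adaptor Pag1 (log2 -1.05, adjusted p = 7.5e-08) and Tec (log2 -1.30, adjusted p = 5.9e-05) were lower in EG1 WT. Ubash3a (a ratio of 47.4, 8.26 to 1900) was higher there.

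Of 15 transcription factor genes with roles in T cells, 14 were tested in each fit. Lef1, a partner of beta-catenin on DNA, fell in line 1 (log2 -1.01 ± 0.047, adjusted p = 1.2e-11) and less in line 2 (log2 -0.31 ± 0.044, adjusted p = 1.1e-05). Runx3 fell in both (log2 -1.85 and -1.92, adjusted p of 1.6e-05 and 9.3e-06), as did Runx1 (log2 -0.79 and -1.25, adjusted p of 5e-04 and 6.4e-06) and the E-protein inhibitor Id2 (log2 -0.60 and -0.81, adjusted p of 0.00019 and 8.3e-06). In all, 3 rose and 5 fell in line 1, and 2 rose and 6 fell in line 2, of 14, beside 52.8% and 59.9% of all genes called. Between the lines 3 were higher and 2 lower in line 2, beside 37.8% of all genes, among them Lef1 (log2 0.70, adjusted p = 3e-09), Tcf7 (log2 -0.33, adjusted p = 4.5e-06), the E-protein inhibitor Id3 (log2 -0.50, adjusted p = 0.00011) and the ETS factor Elf1 (log2 0.35, adjusted p = 0.0061).

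In EG1 KO 2 of these 14 factors rose and 1 fell, beside 7.66% of all genes. Gata3, a T cell lineage factor, rose from 3.7 ± 0.631 to 8.2 ± 1.03 CPM (SD, n = 3 each; log2 1.14 ± 0.15, adjusted p = 1.5e-06), Id2 rose (log2 0.46, adjusted p = 0.02) and Tcf7 fell (log2 -0.23, adjusted p = 0.00092). Between the WT lines 5 were higher and 7 lower in EG1, beside 70.3% of all genes. Lef1 stood at 4.91 ± 0.571 CPM in EG1 WT against 117 ± 3.33 in OdG WT (log2 -4.57, adjusted p = 1.7e-29), and Tcf7, Id2 and Runx1 were also lower (log2 -0.75, -1.96 and -2.18, adjusted p of 2.8e-16, 4.8e-16 and 1.6e-10).

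Other RefSeq genes within 250 kb of the 3 members numbered 24, of which 17 had a row and 12 were tested in the OdG fit (11 in EG1). On the Cd3g side the nearest is Ube4a, a ubiquitin chain-elongating enzyme, and beyond it lie Atp5l, a subunit of the ATP synthase, and Kmt2a, a histone H3 lysine methyltransferase. On the Cd3e side lie Mpzl2, an adhesion molecule of epithelia and thymus, Mpzl3, Amica1 (now Jaml), and the sodium channel beta subunits Scn2b and Scn4b. BC049352 and Il10ra, further on, had at most 2 counts in a library.

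In line 1, where all 3 CD3 genes were higher, 4 of 12 neighbours rose and 1 fell. Ube4a rose from 57.4 ± 1.9 to 81.5 ± 0.266 CPM (log2 0.51 ± 0.049, adjusted p = 1.3e-07), and Atp5l (log2 0.35), Phldb1 (log2 0.35) and Kmt2a (log2 0.21) rose with it, while Ift46 fell (log2 -0.23). Mpzl2, the nearest gene on the other side, was at log2 -0.03 ± 0.039 (adjusted p = 0.53). The share called, 5 of 12, lies beside 52.8% of all genes.

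In line 2, where Cd3g and Cd3d were lower, 4 of 12 neighbours rose and 2 fell, beside 59.9% called over all genes. Ube4a was at log2 0.31 ± 0.05 (adjusted p = 4.1e-05), Kmt2a at 0.52, Phldb1 at 0.44 and Atp5l at 0.29, so Cd3g and the gene beside it differed from WT in opposite directions. Scn2b (log2 -0.41, adjusted p = 0.0071) and Arcn1 (log2 -0.08, adjusted p = 0.039) fell. Neither fall passed by DESeq2 or without line 2 replicate 1, and with RLE factors or no filter 1 neighbour passed as lower. Ube4a was lower in line 2 than in line 1 (log2 -0.20 ± 0.047, adjusted p = 0.0025), the direction in which Cd3g and Cd3d differed, and Kmt2a and Ift46 were higher (log2 0.31 and 0.24).

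In EG1 KO, 1 of 11 neighbours was called, beside 7.66% of all genes. Mpzl2 rose from 149 ± 2.93 to 171 ± 3.16 CPM (log2 0.19 ± 0.037, adjusted p = 0.00066), a smaller change than the log2 0.69 to 0.84 of the CD3 genes. Ube4a was at log2 0.04 ± 0.048 (adjusted p = 0.71). Apart from Scn4b, which had 3 to 18 counts per library and an adjusted p of 0.48 (log2 0.63 ± 0.47), the 11 neighbours lay between log2 -0.04 and 0.19.

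Between the WT lines, 5 of 12 neighbours were higher and 5 lower in EG1, beside 70.3% called over all genes. Amica1 was lower (log2 -3.84 ± 0.53, adjusted p = 1.7e-07, with 1 to 3 counts per EG1 WT library), as was Scn2b (log2 -1.81 ± 0.14, adjusted p = 7.8e-13). Kmt2a (log2 0.79 ± 0.044, adjusted p = 2.4e-16) and Phldb1 (log2 0.57 ± 0.065, adjusted p = 4.4e-09) were higher.

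**Figure D4:**
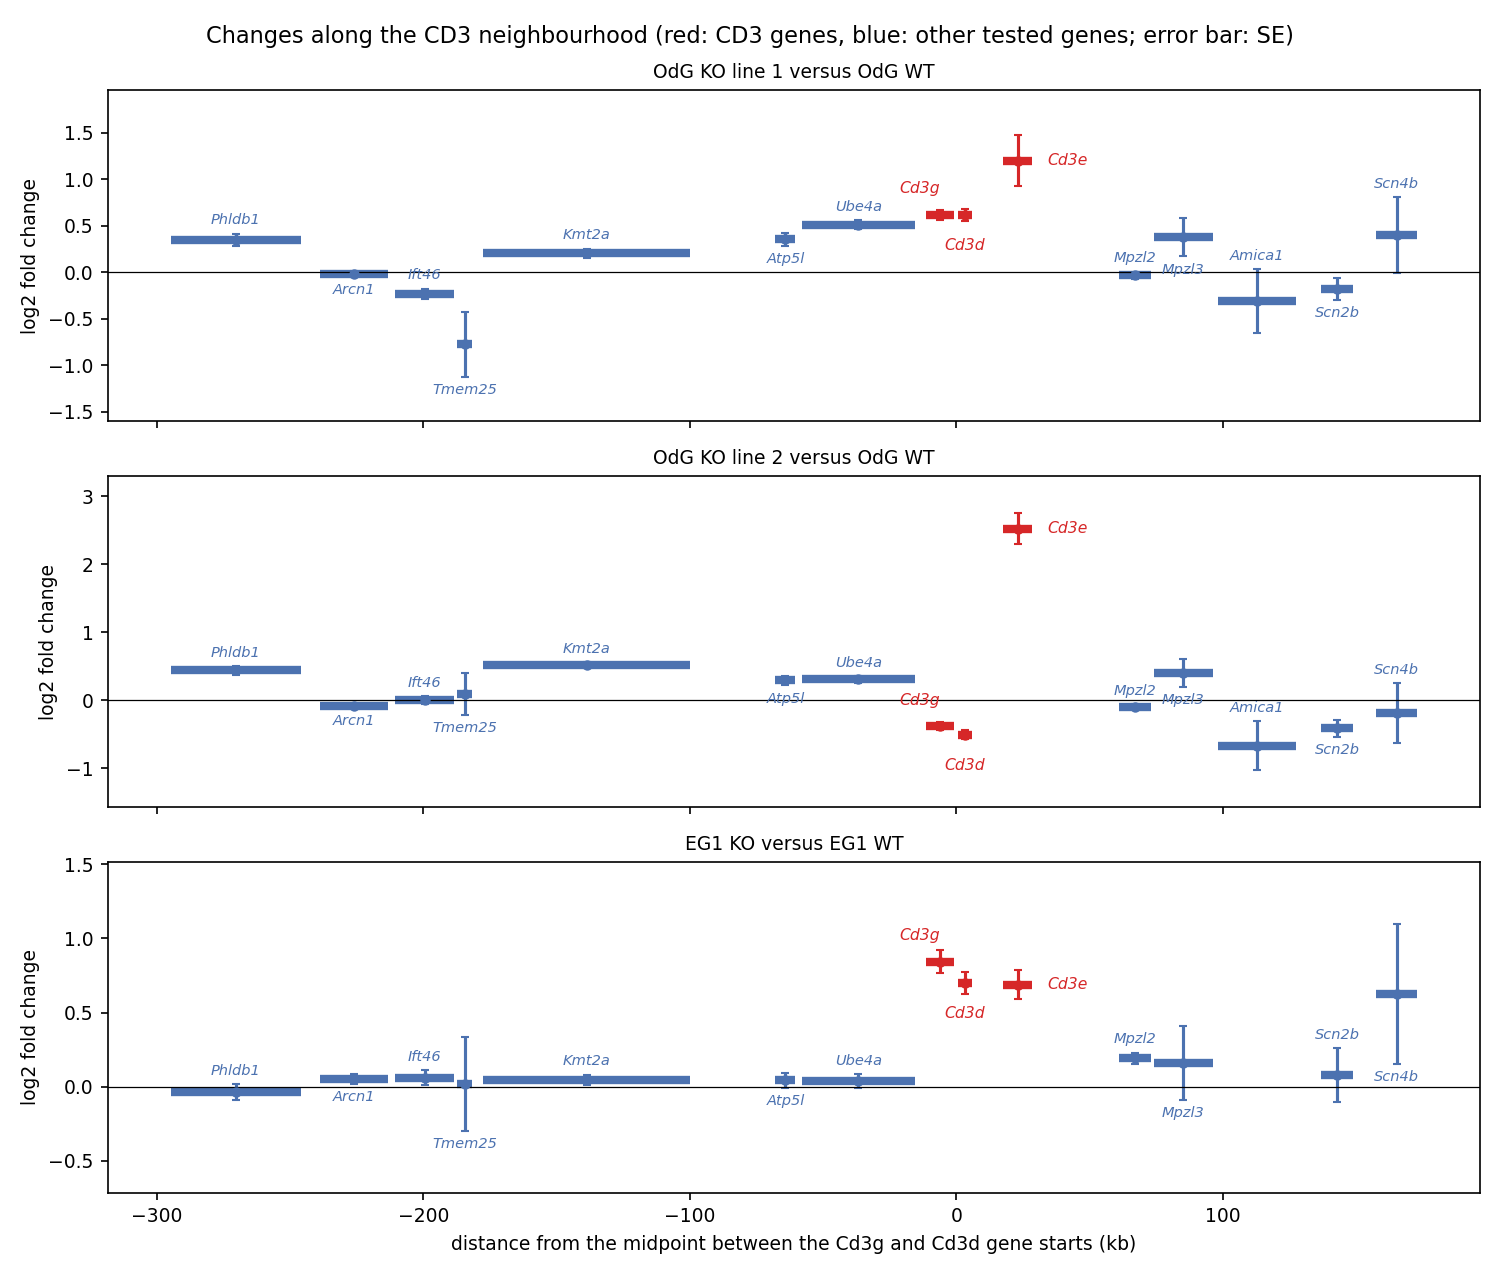
Log2 fold change (y axes, which differ in scale) of the tested genes around the CD3 cluster, against distance in kb from the midpoint between the Cd3g and Cd3d starts (x axis), for the 3 KO to WT comparisons. Horizontal bars span the genes, error bars are SE, CD3 genes are red and other genes blue. In EG1 KO the CD3 genes lie at log2 0.69 to 0.84 with Ube4a at 0.04, and in line 2 Cd3e lies at 2.52 while Cd3g and Cd3d lie below 0.

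Genes with a similar course over the 5 groups were ranked by the root mean square (RMS) difference of their centred group means of log2 CPM from those of each member, over 5 groups of the 12 libraries. Between Cd3d and Cd3g this difference was 0.42 log2 units, and 976 of 14976 genes came closer to Cd3d than Cd3g did, while 168 came closer to Cd3g than Cd3d did. Cd3e differed by 1.71 from Cd3d and 2.04 from Cd3g, and 14362 genes came closer to Cd3e than Cd3g did. By position the 3 genes are neighbours, but by this measure Cd3e was not near the others.

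Nearest to Cd3d were Zdhhc19 (RMS difference 0.0926), Sdr9c7 (0.166), Gja5 (0.184) and Rlbp1 (0.187), of which Rlbp1, a retinoid-binding protein gene, was the most abundant at 48 CPM in line 1 and 18.7 in EG1 WT. Nearest to Cd3g were Plaur, the urokinase receptor gene (0.197), the receptor kinase gene Flt3 (0.212) and Synpo2l (0.215). Nearest to Cd3e were the gap junction gene Gja1 (0.221), Sall3 (0.244), the ESC-expressed Ras gene Eras (0.254) and Adcy2 (0.254). Like Cd3e, Gja1 was lowest in OdG WT (3.67 CPM), then line 1 (12.3), line 2 (20.2), EG1 WT (37.4) and EG1 KO (50.6). Several of these genes were near or below 1 CPM, where group means are imprecise.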

How the data were processed

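Per the submitters' processing notes, the tools were CASAVA, HISAT2 2.1.0, featureCounts 1.6.4 and DESeq2 with the mm10 build. For the annotation and the strand setting the entry is: not given in the sources used here. So sense and antisense reads may share a row. The authors deposited raw counts per gene symbol in 2 tables, and 0 columns were left unmatched. Counts were tested with edgeR 4.0.16 in R 4.3.3: filterByExpr, TMM scaling, 1 mean per group, quasi-likelihood tests, Benjamini-Hochberg adjustment over all genes tested and a threshold of 0.05. OdG (6 libraries) and EG1 (6) were fitted separately, and the WT lines were compared in a fit of all 12. Every adjusted p comes from that test, two-sided. SE is the log2 fold change over the root of its F statistic. CPM used the 12-library scaling. The alternatives were RLE factors, no filter, DESeq2 1.42.0, a replicate block, a prior count of 2 and leaving out each library.

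The members and lists were chosen with earlier results of these data known. Named genes were the members, Etl4, all genes within 250 kb, up to 5 called signalling genes with a log2 change of at least 1, up to 4 called transcription factors per comparison, and the 4 genes nearest in course to each member. Some genes that this rule names are not reported here. The kinase Lck and the adaptors were also described as receptor components, and low-count genes were singled out after their values were seen. Levels per length used GENCODE M21 transcripts, matched for 23080 of 24421 symbols. Promoter windows came from RefSeq (GRCm38.p6). No pair of replicates agreed within counting error (chi-square divided by its degrees of freedom ran from 1.84 to 3.86). Counting intervals are exact 95% binomial and cover counting error only. The test was checked on simulated counts.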

Additional observations from a re-analysis of the deposited data

Results flagged for a closer look

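The KO effects on Cd3d and Cd3g went in opposite directions in different KO lines, with every KO library on one side of every WT library. The fold change in line 2 minus that in line 1, which share their WT libraries, was log2 -1.12 for Cd3d and -0.998 for Cd3g. The fold change in EG1 KO minus that in line 2 was log2 1.20 for Cd3d and 1.23 for Cd3g. For the neighbours Arcn1 and Mpzl2 the same difference between EG1 KO and line 2 was small, at log2 0.13 and 0.28. None of these differences between effects was tested. Groups of 2 and 3 libraries are too small for a test of single outlying libraries.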

How the results depend on the processing

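With DESeq2, 3406 genes (5454 by edgeR) and 7 signalling genes (12) passed between line 2 and line 1, and 684 genes (1074) and 1 signalling gene (2) passed in EG1 KO. In line 1 it passed 5596 of 14413 genes (7616 by edgeR), with 5 of 12 neighbours and 13 of 26 signalling genes. In line 2 it passed 6759 genes (8628), with 4 of 12 neighbours and 14 of 26 signalling genes. With 1 library left out, 638 to 1213 genes and 0 to 2 signalling genes passed in EG1 KO, and 5 to 9 signalling genes between the OdG lines. With 1 library left out, the log2 fold change of Cd3e ran from 0.951 to 1.503 in line 1, 2.27 to 2.82 in line 2 and 2.79 to 3.34 between the WT lines. That of Cd3g ran from -0.46 to -0.30 in line 2 and from -1.03 to -0.97 between the OdG lines. The cause of these differences was not tested, and a group left with 1 library is assumed to vary like the others. The log2 ratio of Cd3d to Cd3g per kb with exon union lengths, an alternative chosen after seeing the data, was 0.12 in OdG WT, 0.12 in line 1, -0.0024 in line 2, 1.00 in EG1 WT and 0.85 in EG1 KO. With RefSeq-paired lengths it was -1.39, -1.39, -1.51, -0.51 and -0.66, since the union lengthens Cd3g more than Cd3d. Of the member fold changes under the alternatives run for them (all except DESeq2), 123 moved by less than the replicate SD and 6 by more, and none changed direction. The 43 neighbour counts stayed within 1.5 times the reported ones, though both falls in line 2 were lost by DESeq2 and without line 2 replicate 1. With a replicate block 7515, 8566, 5334, 906 and 10241 genes passed in line 1, line 2, between those lines, in EG1 KO and between WT lines, and no count moved by over 1.5 times. Same-numbered libraries share only a number: their deviations correlated at -0.05 to 0.028, and 0 of 6 EG1 libraries correlated best with their own number. Counts of 16 to 23 limit Cd3e in OdG WT.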

Other observations

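Genes of other blood lineages were also counted at low levels. Among B cell markers, Cd22 had means of 3.44 CPM in OdG WT, 4.01 in line 1, 9.47 in line 2, 0.528 in EG1 WT and 0.386 in EG1 KO. The B cell receptor chains did not follow it: Cd79b was at 4.49, 2.68, 2.08, 1.25 and 1.12 CPM in the same groups and Cd79a at 0.291, 0.427, 0.425, 0.783 and 0.886, while Ms4a1, Pax5 and Blk stayed under 10 counts in every library. Among myeloid markers, Itgam was at 2.86, 1.53, 2.77, 0.128 and 0.0959 CPM, Csf1r at 1.11, 1.32, 1.13, 0.211 and 0.0772, and Fcgr3 at 1.78, 2.38, 4.3, 1.9 and 2.21. Spi1 (0.524, 0.89, 0.863, 1.36 and 1.43) and Cd14 (0.235, 0.22, 0.0579, 1.66 and 1.42) had more CPM in EG1, and Adgre1, Lyz2 and Mpo had at most 2 counts in a library. The summed level of the 13 fibroblast markers was highest in OdG WT (57.8 to 62.4 CPM) and lowest in line 2 (31.3 to 32.5 CPM), but single markers differed. In the same groups Pdgfrb was at 30.3, 15.2, 8.73, 2.13 and 1.68 CPM and Col5a1 at 8.98, 10.4, 13.7, 22.7 and 23.3. The means of Col1a1 (10.9, 12, 2.69, 5 and 7.48 CPM) and Acta2 (4.08, 5.11, 1.3, 0.149 and 0.212 CPM) were highest in line 1. Col1a1 counts overlapped there, at 167 to 208 in OdG WT and 203 to 208 in line 1. Of 6 fibroblast markers tested in line 1 against OdG WT, 0 were called higher and 1 lower. Over all genes 26.8% were called higher and 26.1% lower. The summed level in line 1 was 45.7 to 48.4 CPM. The part of other cell types in the CD3 values was not tested.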
